A study of Mus musculus with 12 samples.

Results

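Mammals carry 6 actin genes, and all 6 were measured here in heart ventricles of wild-type mice and of mice that lacked Vps13c in the heart. The genes are Acta1, Actc1, Acta2, Actg2, Actb and Actg1. They were chosen by name, and each was found once among the 21959 gene IDs of the count table. The samples were ventricles of 12 male mice, 7 weeks old and fed chow, of which 6 were wild type (WT) and 6 carried a knockout of Vps13c restricted to the heart (Vps13c-cKO). Vps13c encodes a very large lipid transfer protein that sits at contacts between organelles. Sources used here do not give the driver of the knockout, the exons deleted, whether WT mice carried a driver, or any batch.

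Actin is the protein of thin filaments and of the cytoskeleton. Actc1 encodes cardiac alpha-actin, the main actin of adult heart muscle, and Acta1 encodes skeletal alpha-actin, which the heart uses in the fetus and again under load. Acta2 encodes the alpha-actin of vascular smooth muscle and of myofibroblasts, and Actg2 encodes the gamma-actin of visceral smooth muscle. Actb and Actg1 encode beta- and gamma-actin of the cytoskeleton, present in nearly every cell. Many actin genes are switched on by serum response factor (SRF) with its cofactors myocardin and the MRTF proteins, which are held back by binding free actin monomers.

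The 6 genes differ little in their coding sequence, so how well reads tell them apart matters for every value. The first 45 bases of each coding sequence, from GENCODE M21 transcripts and written 5′ to 3′, are shown to illustrate this, with capitals marking each base that differs from Actc1 in a pairwise alignment.
Acta1: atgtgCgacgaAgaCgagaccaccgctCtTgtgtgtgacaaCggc
Actc1: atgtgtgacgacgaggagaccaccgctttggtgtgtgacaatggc
Acta2: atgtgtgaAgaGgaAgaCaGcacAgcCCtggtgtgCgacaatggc
Actg2: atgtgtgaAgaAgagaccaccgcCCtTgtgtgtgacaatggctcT
Actb: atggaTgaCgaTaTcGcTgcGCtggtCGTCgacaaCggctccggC
Actg1: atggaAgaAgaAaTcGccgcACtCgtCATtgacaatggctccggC

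In this window Acta1 differed from Actc1 at 6 bases, whereas Actb differed at 14 and Actg1 at 12, gaps not counted. Gaps are not drawn either, so the lines of Actg2, Actb and Actg1 shift against that of Actc1. Over the whole coding sequence their alignments with Actc1 had 3, 6 and 6 gap columns. Over the whole coding sequence Acta1 and Actc1 were identical at 86.16% of 1134 aligned positions, with 157 substitutions. Identity between pairs ranged from 81.48%, for Actc1 with Actg1 and for Acta2 with Actg1, to 88.65% for Actb with Actg1. The 3 alpha-actins have 377 codons, Actg2 has 376, and Actb and Actg1 have 375. No stretch of 100 bases of the main transcript of 1 actin gene recurred in another of the 6. For Acta1, Actc1, Acta2 and Actg2, 0 such stretches occurred in transcripts of any other gene. For Actg1, 946 of 1853 stretches (51.1%) also occurred elsewhere, mostly in processed pseudogenes such as Gm12715 and Gm8399, and for Actb 20 of 1821 did (1.1%). Shorter stretches, of 50 bases, recurred more often. For Acta1 31 of 1397 did (2.22%), of which 28 were shared with Actb, and for Acta2 7 of 1986, all shared with Actg1. For Actb it was 266 of 1871 (14.2%), many of them in the coding gene Lrrc58, and for Actg1 1079 of 1903 (56.7%). Actc1 and Actg2 had 0. Sources used here do not say how reads with several matches were counted. Of the 6 genes, Actg1 had the largest share of stretches found in transcripts of other genes. Reads themselves were not examined.

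Libraries held 12484523 to 15562942 gene counts, of which 29.2% to 32.2% lay on mitochondrially encoded genes. Levels are given as CPM, the read count of a gene relative to a library size scaled by TMM, as mean ± SD over 6 mice. Changes are log2 fold changes of Vps13c-cKO minus WT ± SE, derived from edgeR's quasi-likelihood test. The SE is the absolute log2 fold change divided by the square root of that test's F statistic. P-values were adjusted by Benjamini-Hochberg over the 12384 genes tested, with a threshold of 0.05. Vps13c itself was at 61.9 ± 4.85 CPM in WT and 18.2 ± 1.58 CPM in Vps13c-cKO, and no knockout mouse reached the lowest WT mouse. At that threshold 700 genes were higher and 631 lower in Vps13c-cKO, which is 10.7% of the genes tested. In 4.93% of them the 2 groups did not overlap in CPM. A pair of WT libraries stood apart in ways that touch the actins. WT mouse 4 held 405 counts of the atrial light chain gene Myl7, 433 of Myl4 and 114 of Sln, against at most 5, 31 and 1 in the other 11 libraries, and it also had the highest WT level of Acta1. WT mouse 3 had the highest Acta2 level of all 12 libraries.

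Actc1 dominated actin RNA in both genotypes. To compare genes with each other, CPM was divided by the length of the main transcript in kilobases (CPM per kb). On that scale WT ventricles held 5638 ± 243 CPM per kb of Actc1, 134 ± 29.8 of Acta1, 90.7 ± 7.40 of Actb, 64.8 ± 30.6 of Acta2, 45.4 ± 1.67 of Actg1 and 0.169 ± 0.0810 of Actg2. Actc1 ranked 1 of 21838 nuclear genes by CPM per kb of annotated exons. Acta1 ranked 184, Actb 404, Acta2 440, Actg1 796 and Actg2 12723 in WT. Neighbours in this order were not always separate. Acta1 (110 to 192 CPM per kb) lay above Actb (82.8 to 103) in every WT mouse, but the ranges of Actb and Acta2 overlapped, as did those of Acta2 and Actg1.

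Vps13c-cKO ventricles had the same order with a wider gap after Acta1. Their means were 5824 ± 199 CPM per kb for Actc1, 474 ± 110 for Acta1, 97.0 ± 6.43 for Actb, 54.0 ± 8.30 for Acta2, 49.5 ± 3.48 for Actg1 and 0.190 ± 0.122 for Actg2. Acta1 moved to rank 35, while Actc1 stayed at rank 1. Actb was at rank 371, Acta2 at 506, Actg1 at 736 and Actg2 at 12815. In this group every mouse had more Actb than any had Acta2 (40.4 to 62.5 CPM per kb), and Acta2 and Actg1 still overlapped.

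**Figure D1:**
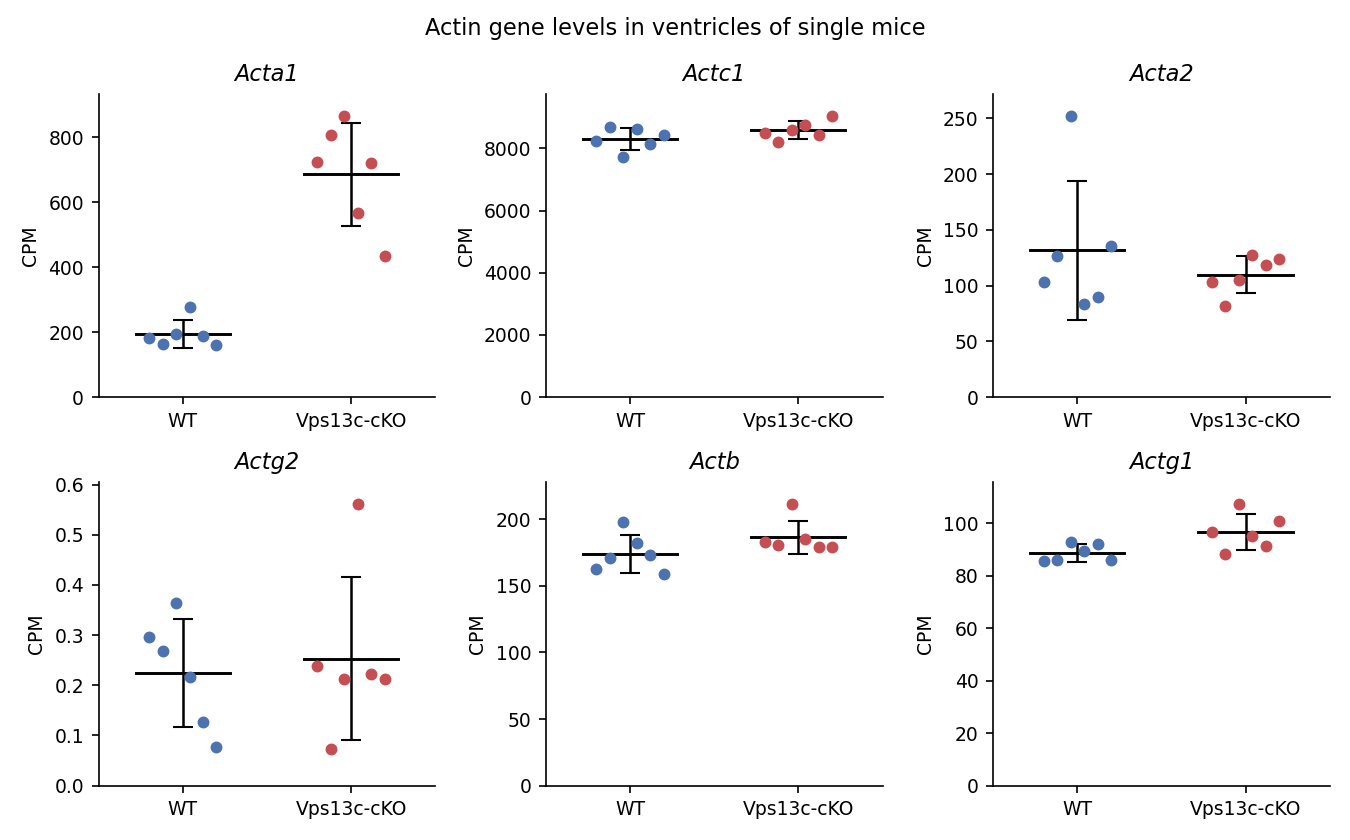
Level of each actin gene (CPM, y axis, from 0 in each panel) in the 6 WT and 6 Vps13c-cKO mice; points are mice, lines are means and bars are SD. The groups are separate for Acta1, at 159 to 277 CPM in WT and 434 to 865 CPM in Vps13c-cKO, and overlap for the other 5 genes.

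Acta1, the skeletal alpha-actin gene, rose in the knockout. Its raw count was 2079 to 3834 in WT and 6148 to 12260 in Vps13c-cKO. In WT mice the level was 159 CPM at the lowest, 184 at the median and 277 at the highest. In Vps13c-cKO mice it was 434 CPM at the lowest, 722 at the median and 865 at the highest. Every knockout mouse lay above every WT mouse. The mean went from 194 ± 43.1 to 686 ± 159 CPM, a ratio of 3.54, and the log2 fold change was 1.83 ± 0.14 (edgeR, adjusted p = 1.44e-08). Relative spread between mice was alike, with a coefficient of variation of 22.3% in WT and 23.2% in Vps13c-cKO. Without WT mouse 4, the library with atrial transcripts, the log2 fold change was 1.95 ± 0.13. Acta1 was the only 1 of the 5 tested actin genes to pass the threshold, against 10.7% of all genes. In a bulk sample, more cells with a transcript and more transcript per cell cannot be told apart.

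The bases upstream of the start are shown for both sarcomeric actins, Acta1 because it rose and Actc1 because it passed no threshold. They are 250 bases before the annotated start, from RefSeq on GRCm38.p6, on the minus strand, at chr8:123894776-123895025 for Acta1 and chr2:114052876-114053125 for Actc1. Capitals mark an exact match to the CArG box, the motif bound by SRF.
Acta1: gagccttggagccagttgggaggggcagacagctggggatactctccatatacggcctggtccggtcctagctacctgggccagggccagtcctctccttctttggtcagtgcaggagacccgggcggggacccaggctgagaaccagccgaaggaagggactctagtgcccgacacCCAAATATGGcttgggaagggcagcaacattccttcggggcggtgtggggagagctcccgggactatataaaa
Actc1: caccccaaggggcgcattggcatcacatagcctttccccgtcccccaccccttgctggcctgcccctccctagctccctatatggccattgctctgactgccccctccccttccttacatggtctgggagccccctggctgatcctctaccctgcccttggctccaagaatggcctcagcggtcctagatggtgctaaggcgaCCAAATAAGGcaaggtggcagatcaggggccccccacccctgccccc

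Both upstream windows held 1 exact CArG box, at 73 to 64 bases before the start in Acta1 and at 47 to 38 in Actc1. Actg1, which passed no threshold either, had 1 at 90 to 81 bases before its start, and Acta2 had 0 exact matches. Stretches 1 base off the motif were not counted, such as ccatatacgg in Acta1 and ccctatatgg in Actc1 and Acta2. The counts therefore do not give the number of SRF sites. Of 32851 promoter windows of the same length, 1.47% held an exact CArG box on either strand. The Acta1 window also held TATAAA at 7 to 2 bases before the start, a motif found in 12.4% of all windows, and CATTCC at 46 to 41, found in 12.6%. CATTCC is the core of the site bound by TEAD factors. Acta2 held it on the other strand at 146 to 141. Sequence windows for Actg2 and Actb were not used here. A match describes letters in a window and is not evidence of binding.

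Actc1, the cardiac alpha-actin gene, did not pass the test. It had 7713 CPM at the lowest, 8332 at the median and 8691 at the highest in WT. In Vps13c-cKO these values were 8192, 8534 and 9040 CPM. The ranges overlapped over most of their width, and the means were 8305 ± 358 and 8579 ± 292 CPM. Its log2 fold change was 0.05 ± 0.03 (edgeR, adjusted p = 0.410). Because this gene is so abundant, its mean still differed by 274 CPM, compared with 492 CPM for Acta1.

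The cytoskeletal actins were slightly higher in Vps13c-cKO on average, without passing the threshold. Actb ranged from 159 to 198 CPM around a median of 172 in WT, and from 179 to 211 CPM around a median of 182 in Vps13c-cKO. Actg1 ranged from 85.8 to 92.8 CPM around a median of 87.8 in WT, and from 88.3 to 107 CPM around a median of 96.1 in Vps13c-cKO. For both genes 6 of 6 knockout mice lay above the WT median, yet the groups overlapped. The log2 fold change of Actb was 0.10 ± 0.05 (edgeR, adjusted p = 0.257). For Actg1 it was 0.12 ± 0.05 (edgeR, unadjusted p = 0.0127, adjusted p = 0.0885). The Actg1 call depended on the fit: it passed with 1 surrogate variable in the model (log2 fold change 0.13, adjusted p = 0.0420) and without Vps13c-cKO mouse 2 (0.15, adjusted p = 0.0427).

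Acta2, the vascular smooth muscle actin gene, rested on 1 library. In WT it had 83.9 CPM at the lowest, 115 at the median and 252 at the highest, and the next highest mouse was at 136 CPM. In Vps13c-cKO the lowest, median and highest were 82.1, 112 and 127 CPM. The groups overlapped almost fully, and the means were 132 ± 62.3 and 110 ± 16.9 CPM. Its log2 fold change was -0.26 ± 0.19 (edgeR, adjusted p = 0.438). Without WT mouse 3 the estimate turned to 0.03 ± 0.11 (adjusted p = 0.924). In that mouse the smooth muscle genes Myh11 and Myl9 had 298 and 224 counts, within 254 to 355 and above 145 to 202 in the other WT mice. Other smooth muscle markers went both ways there. Lmod1 (3.07 CPM) and Synpo2 (165 CPM) were the highest of the WT mice. Mustn1 (2.41 CPM), Sncg (1.53 CPM) and Des (1100 CPM) were the lowest, and Cnn1, Smtn and Mylk lay within the range of the others.

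Actg2, the visceral smooth muscle actin gene, was barely detected. It had 1 to 5 counts per WT library and 1 to 7 per Vps13c-cKO library, 19 and 20 counts in all. The means were 0.225 ± 0.108 and 0.253 ± 0.162 CPM. At these counts it did not pass the filter on low counts, and a difference was not detectable at this depth.

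The make-up of actin RNA shifted toward Acta1. As a share of the summed CPM of all 6 genes, Acta1 held 2.17% ± 0.453 in WT (1.76% to 2.99%) and 7.12% ± 1.70 in Vps13c-cKO (4.40% to 8.76%). Actc1 held 93.4% ± 1.07 in WT and 88.8% ± 1.67 in Vps13c-cKO. The Actc1 ranges touched through WT mouse 3, at 91.3%, which lay below the highest knockout mouse at 91.5%. Per kb of main transcript, the Acta1 share was 2.24% ± 0.465 and 7.31% ± 1.74, and the Actc1 shares of 94.4% and 89.6% then did not overlap between groups. Without WT mouse 3 the Actc1 difference was -4.96 percentage points, against -4.55 with it. No test was made of shares.

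The remaining genes kept small shares. Actb was at 1.96% ± 0.203 of summed CPM in WT and 1.93% ± 0.110 in Vps13c-cKO. Acta2 was at 1.50% ± 0.761 and 1.14% ± 0.162, and Actg1 at 0.999% ± 0.0656 and 1.00% ± 0.0515. Actg2 was at 0.00255% and 0.00261%. The differences of the small shares leaned on WT mouse 3: without it the Acta2 difference went from -0.361 to -0.0633 percentage points, and that of Actb from -0.0338 to 0.0421. Muscle actins together were at 97.0% ± 0.261 in WT and 97.1% ± 0.148 in Vps13c-cKO, so the shift lay among the muscle genes. Within the cytoskeletal pair, Actb was at 66.2% ± 1.23 in WT and 65.8% ± 1.08 in Vps13c-cKO.

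Summed actin CPM was larger in the knockout, and the groups did not overlap. It was 8894 ± 317 CPM in WT (8450 to 9252) and 9658 ± 208 in Vps13c-cKO (9349 to 9878). Of the difference of 764 CPM, Acta1 made up 64.4%. The pair of sarcomeric genes, Acta1 plus Actc1, had 8499 ± 367 CPM in WT and 9265 ± 185 in Vps13c-cKO. Acta1 was 2.28% ± 0.472 of that pair in WT and 7.42% ± 1.77 in Vps13c-cKO.

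**Figure D2:**
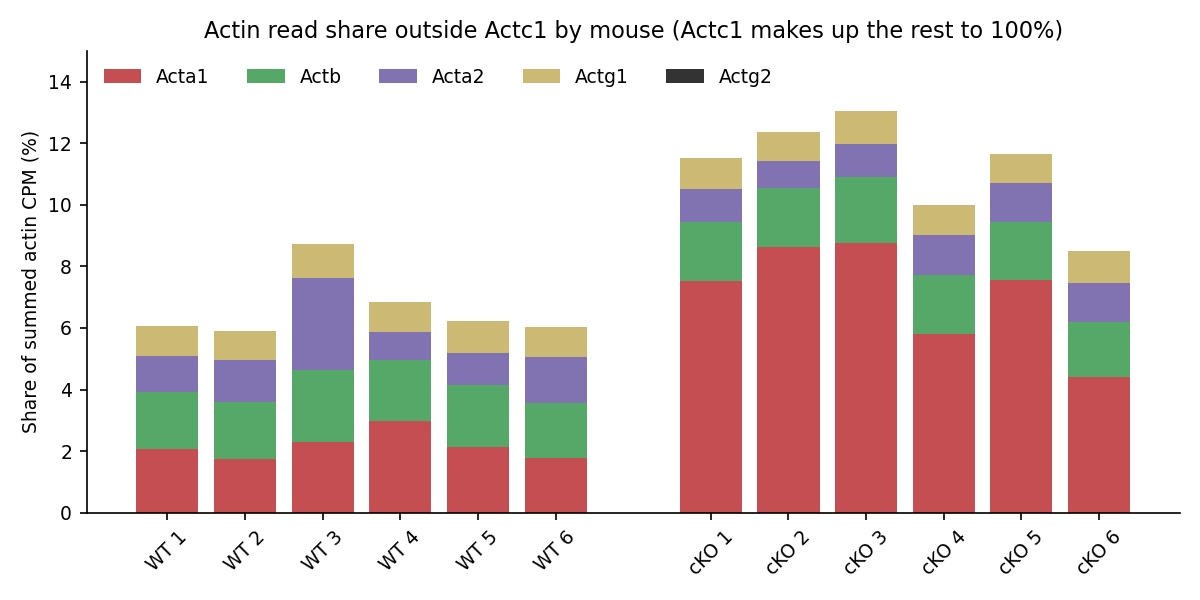
Share of summed actin CPM (percent, y axis) held by the actin genes other than Actc1, stacked for each WT mouse and each Vps13c-cKO mouse (cKO); Actc1 makes up the rest. The Acta1 block lies between 1.76% and 2.99% in WT and between 4.40% and 8.76% in Vps13c-cKO, and WT 3 has the largest Acta2 block, 2.98%.

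Ratios between actin genes do not depend on library size and show which genes moved unequally. Log2 ratios, with 0.5 count added, were compared by two-sided exact permutation tests over 924 regroupings, with p-values adjusted over the 7 ratios. The log2 ratio of Acta1 to Actc1 was -5.45 ± 0.290 in WT and -3.68 ± 0.411 in Vps13c-cKO, a difference of 1.77 ± 0.21 (SE), or 3.40-fold (exact permutation p = 0.00216, adjusted p = 0.00379). The p-value is the smallest this design can give. Acta1 also differed with that same p from Acta2 (by 1.98 ± 0.37), from Actb (by 1.72 ± 0.17) and from Actg1 (by 1.69 ± 0.19). In these 4 ratios no knockout mouse overlapped a WT mouse. Against Actg2, with few counts, the difference was 1.71 ± 0.49 and the groups overlapped (exact permutation p = 0.00866, adjusted p = 0.0121).

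Ratios without Acta1 did not pass. Actb to Actg1 differed by -0.02 ± 0.04 on the log2 scale (exact permutation p = 0.606, adjusted p = 0.606). Acta2 to Actg2 differed by -0.28 ± 0.38 (exact permutation p = 0.489, adjusted p = 0.571). The cytoskeletal ratio was measured tightly, with an SD over mice of 0.0797 in WT and 0.0688 in Vps13c-cKO.

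**Figure D3:**
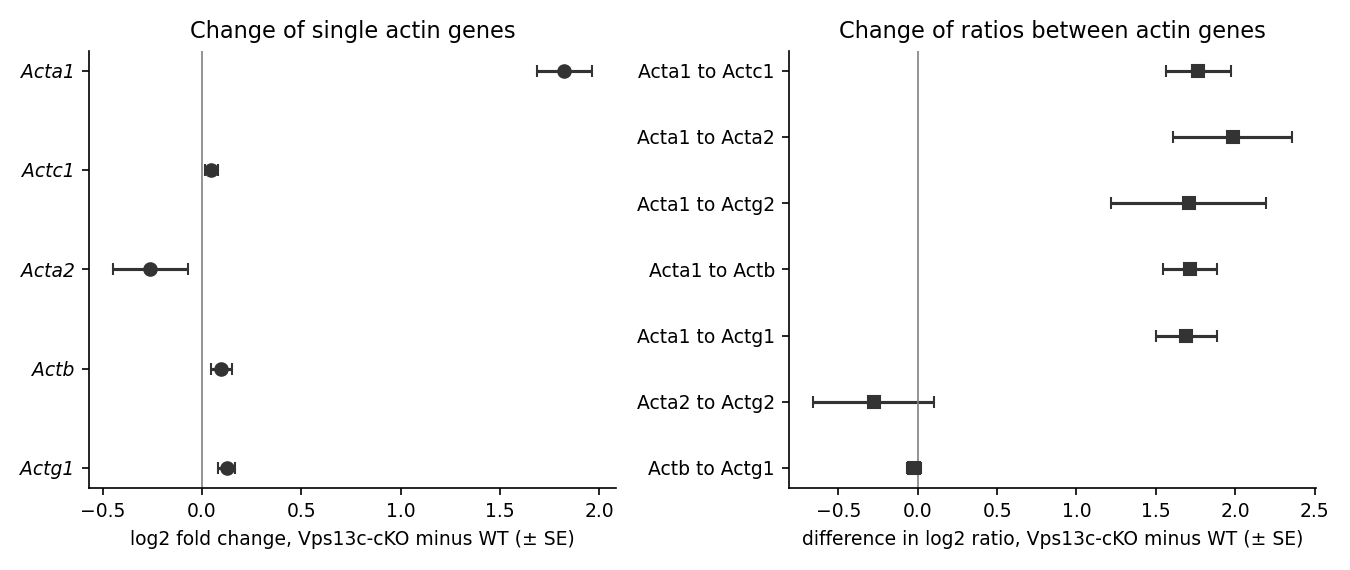
Left, log2 fold change of each tested actin gene (x axis, Vps13c-cKO minus WT, bars are SE); right, difference in log2 ratio between pairs of actin genes (x axis, bars are SE). Acta1 lies at 1.83 and its 5 ratios between 1.69 and 1.98, while Actb to Actg1 lies at -0.02.

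Between mice of 1 genotype, 8 relations among actin genes and Vps13c were computed over 6 mice each, and none passed after adjustment. Acta1 and Actc1 had Pearson r = 0.0868 in WT (exact permutation p = 0.857, adjusted p = 0.857) and rho = -0.314 (exact permutation p = 0.564, adjusted p = 0.564). Without the 2 WT mice farthest from the median of Acta1, r was -0.953. The same pair had r = -0.846 in Vps13c-cKO (exact permutation p = 0.0306, adjusted p = 0.158) and Spearman rho = -0.6 (exact permutation p = 0.242, adjusted p = 0.483). Without the 2 farthest knockout mice r was 0.106. Over so few mice and a narrower range of Acta1, that value cannot show what the relation rested on. Actb and Actg1 had r = 0.800 in WT (exact permutation p = 0.0653, adjusted p = 0.158) and rho = 0.771 (exact permutation p = 0.103, adjusted p = 0.411), with r = 0.582 without the 2 farthest mice. In Vps13c-cKO that pair had r = 0.746 (exact permutation p = 0.0736, adjusted p = 0.158) and rho = 0.486 (exact permutation p = 0.356, adjusted p = 0.559), and r without the 2 farthest was -0.111. Acta1 and Vps13c had r = -0.776 in WT (exact permutation p = 0.0792, adjusted p = 0.158) and rho = -0.657 (exact permutation p = 0.175, adjusted p = 0.467), and r was 0.459 without the 2 farthest mice. In Vps13c-cKO they had r = -0.400 (exact permutation p = 0.433, adjusted p = 0.495) and rho = -0.314 (exact permutation p = 0.564, adjusted p = 0.564), with r = -0.0267 without the 2 farthest. The relations of Acta1 with Acta2 had r = -0.347 in WT and -0.682 in Vps13c-cKO (exact permutation p = 0.408 and 0.121, adjusted p = 0.495 and 0.193), with rho of -0.429 and -0.771 (exact permutation p = 0.419 and 0.103, adjusted p = 0.559 and 0.411). Without the 2 farthest mice these r were 0.340 and -0.412.

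For each tested actin gene, the most similar genes were found by Pearson r of log2 CPM after subtracting group means, over 12 samples and 11313 genes. Acta1 was most like Tmem173 (r = 0.915), Rap1a (0.907) and Prps1l3 (0.897). Actc1 was most like Smpx (0.885), Tmem60 (0.861) and Kctd11 (0.853), and Acta2 like Neil2 (0.884), Noc4l (0.872) and Dgcr2 (0.850). Actb was most like Erbin (0.931), Adam23 (0.912) and Tbx20 (0.889), and Actg1 like Wdr35 (0.925), Lepr (0.912) and Atg5 (0.901). None of these 15 genes is another actin, and each value is the highest of many over few mice, so it is given as a description.

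Other genes of the actin system, and genes of the fetal or overloaded heart, were then counted in lists. Together the lists held 183 tested genes, of which 37 were higher and 15 lower in Vps13c-cKO. That pooled count includes the fetal and hypertrophy list, with 9 of 15 tested higher and 1 lower. This list was put together with its direction in these mice known, so the pooled count is no independent evidence. The other lists were also chosen with earlier results of these data known, so their shares are descriptions and no independent evidence either. Over all tested genes 10.7% passed, 5.65% higher and 5.1% lower, and each list's share is to be read beside these. Their medians are read beside the median over all tested genes, a log2 fold change of 2.75e-05. Genes are named by rank of p within a list, with 1 exception. Members named to account for a small count were chosen after their values were seen.

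Known regulators of Acta1 changed by small amounts. Of 22 tested genes of the SRF and MRTF regulators, 3 were higher and 2 lower (22.7%, against 10.7% of all tested genes), with a median log2 fold change of 0.03. Elk3, an SRF cofactor of the ETS family, fell by 0.28 ± 0.06 and Ablim1, an actin-binding LIM protein, fell by 0.13 ± 0.04. Hopx, an SRF antagonist in heart, rose by 0.17 ± 0.05. Phactr4, which binds actin monomers, rose by 0.18 ± 0.06. The call of Elk3 was kept in all 24 alternative fits, whereas that of Phactr4 was lost in 12, that of Ablim1 in 10 and that of Hopx in 4. Leaving out WT mouse 6 or Vps13c-cKO mice 1, 2 or 4 left 1 gene higher, and leaving out WT mice 1, 2 or 6 or Vps13c-cKO mice 1, 3, 4 or 5 left 1 lower. Srf itself ranged from 41.3 to 47.4 CPM in WT and from 44.5 to 51.9 in Vps13c-cKO (log2 fold change 0.14 ± 0.05, edgeR, adjusted p = 0.0676, under 0.05 in 3 of 24 alternatives). The cofactor genes Myocd (0.13 ± 0.09, adjusted p = 0.392) and Mrtfa (0.10 ± 0.10, adjusted p = 0.605) did not pass.

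SRF and MRTF targets other than actins were mixed. Of 32 tested, 8 were higher and 4 lower (37.5%, against 10.7% of all), with a median of 0.05. Ccn2, a matricellular protein gene, went from 50.5 ± 6.29 to 87.4 ± 10.8 CPM (log2 fold change 0.79 ± 0.08, edgeR, adjusted p = 1.13e-06). Des, the gene of the intermediate filament desmin, went from 1160 ± 49.6 to 1390 ± 23.4 CPM (0.26 ± 0.03, adjusted p = 9.46e-06). Tpm2, beta-tropomyosin, went from 8.40 ± 1.14 to 13.8 ± 1.16 CPM (0.71 ± 0.09), whereas Tpm1, the main cardiac tropomyosin, fell by 0.16 ± 0.03 from 6511 ± 233 to 5824 ± 116 CPM. Also lower were Fhl2, which fell by 0.24 ± 0.04, Smtn, which fell by 0.18 ± 0.04, and Filip1l, which fell by 0.20 ± 0.06 and lost its call in 4 of 24 alternatives. None of these changed as much as Acta1. Without Vps13c-cKO mouse 4, 5 genes of the list were higher.

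Genes that build filaments went both ways. Among 32 tested genes of nucleation and elongation, 4 were higher and 5 lower (28.1%, against 10.7% of all), with a median of 0.04. Cobl, an actin nucleator, rose by 0.44 ± 0.10, and the formin gene Diaph1 rose by 0.20 ± 0.05. Spire1 (0.33 ± 0.10) and Lmod3 (0.14 ± 0.04) were also higher, and these 2 calls were lost in 13 and 10 of 24 alternatives. The formin genes Inf2, Fhod1 and Fhod3 fell by 0.32 ± 0.07, 0.33 ± 0.10 and 0.14 ± 0.04. Cobll1 fell by 0.28 ± 0.05 and Wasl, an activator of the Arp2/3 complex, fell by 0.14 ± 0.04. Of the lower genes, Fhod1, Wasl and Fhod3 lost their call in 7, 3 and 1 of 24 alternatives. Leaving out WT mice 1 or 6 or Vps13c-cKO mice 2 or 3 left 2 genes higher, and leaving out WT mouse 1 or Vps13c-cKO mouse 3 left 3 lower.

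Genes that bind monomers or sever and cap filaments moved one way where they passed. Of 32 tested, 7 were higher and 0 lower (21.9%, against 10.7% of all), with a median of 0.03. Without WT mouse 4, 2 genes were lower. Twf2, twinfilin, rose by 0.24 ± 0.04 and Capza1, of the capping protein, by 0.23 ± 0.05. Cfl2, the muscle cofilin, rose by 0.16 ± 0.03 and Gsn, gelsolin, by 0.21 ± 0.05. Among the 7, the calls of Capg and Pfn1 were lost in 12 and 6 of 24 alternatives. The summed level of the list was 4055 ± 91.6 CPM in WT and 4264 ± 44.5 in Vps13c-cKO, a difference of 210 CPM. Most of that difference lay in Gsn, which went from 890 ± 64.9 to 1031 ± 60.5 CPM. Gsn is also a fibroblast marker.

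Among 22 tested genes of actin folding and modification, 1 was higher and 0 lower, with a median of 0.02. That is 4.55% of the list, below the 10.7% of all tested genes. The gene was Pdcl3, a helper of the CCT chaperonin, at 0.18 ± 0.05, and its call was lost without Vps13c-cKO mice 1 or 4. Cct3, a CCT subunit, was next with 0.13 ± 0.04 (edgeR, adjusted p = 0.0508) and passed in 11 of 24 alternatives, among them without WT mouse 6 and without Vps13c-cKO mouse 2. Of 10 tested actin-related genes, 0 were higher and 1 was lower: Actr3b, an Arp3 paralog, fell by 0.24 ± 0.05. That is 10% of the actin-related genes, close to the 10.7% of all, and their median was -0.04. The other actin-like genes Actl6b, Actbl2, Actrt1, Actrt2, Actrt3 and Actl7b had 0 counts in all 12 libraries.

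Partners of actin in the sarcomere changed in both directions. Of 25 thin filament and crosslinking genes, 8 were higher and 3 lower (44%, against 10.7% of all), with a median of 0.08. Among the higher genes, Ankrd1 and Xirp2 are also on the fetal and hypertrophy list. Ankrd1, a titin-binding stress gene, went from 315 ± 50.2 to 870 ± 98.7 CPM (log2 fold change 1.47 ± 0.09, edgeR, adjusted p = 2.86e-10). Flnc, filamin C, rose by 0.35 ± 0.04 and Lcp1, the plastin of white blood cells, rose by 0.40 ± 0.07. The 3 lower genes were Tpm1, Tnni3 and Tnnt2, of which the cardiac troponin genes Tnni3 and Tnnt2 fell by 0.22 ± 0.03 and 0.13 ± 0.04. Tnnc1, the cardiac troponin C gene, went the other way and rose by 0.18 ± 0.05 (edgeR, adjusted p = 0.0114). The alpha-actinin gene Actn2 was at 1659 ± 27.2 CPM in WT and 1695 ± 51.0 in Vps13c-cKO (0.03 ± 0.03, adjusted p = 0.565).

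Genes that, like Acta1, are known from the fetal or overloaded heart were higher more often than not. Of 15 tested, 9 were higher and 1 lower, with a median of 0.23, where 5.65% of all tested genes were higher. Nppa, the atrial natriuretic peptide gene, went from 4.56 ± 1.93 to 19.7 ± 5.49 CPM (log2 fold change 2.12 ± 0.21, edgeR, adjusted p = 5.31e-07), and Nppb went from 64.4 ± 9.02 to 144 ± 21.5 CPM (1.16 ± 0.09). Mybpc2, the fast skeletal myosin-binding protein C gene, lies on chromosome 7 and rose by 0.92 ± 0.09. Atp2a2, the cardiac calcium pump gene, was the 1 that fell, by 0.20 ± 0.03. The myosin genes Myh7 (0.12 ± 0.07, adjusted p = 0.304) and Myh6 (-0.06 ± 0.04, adjusted p = 0.394) did not pass. The list was put together with its direction in these mice known, so its count is no independent evidence.

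**Figure D4:**
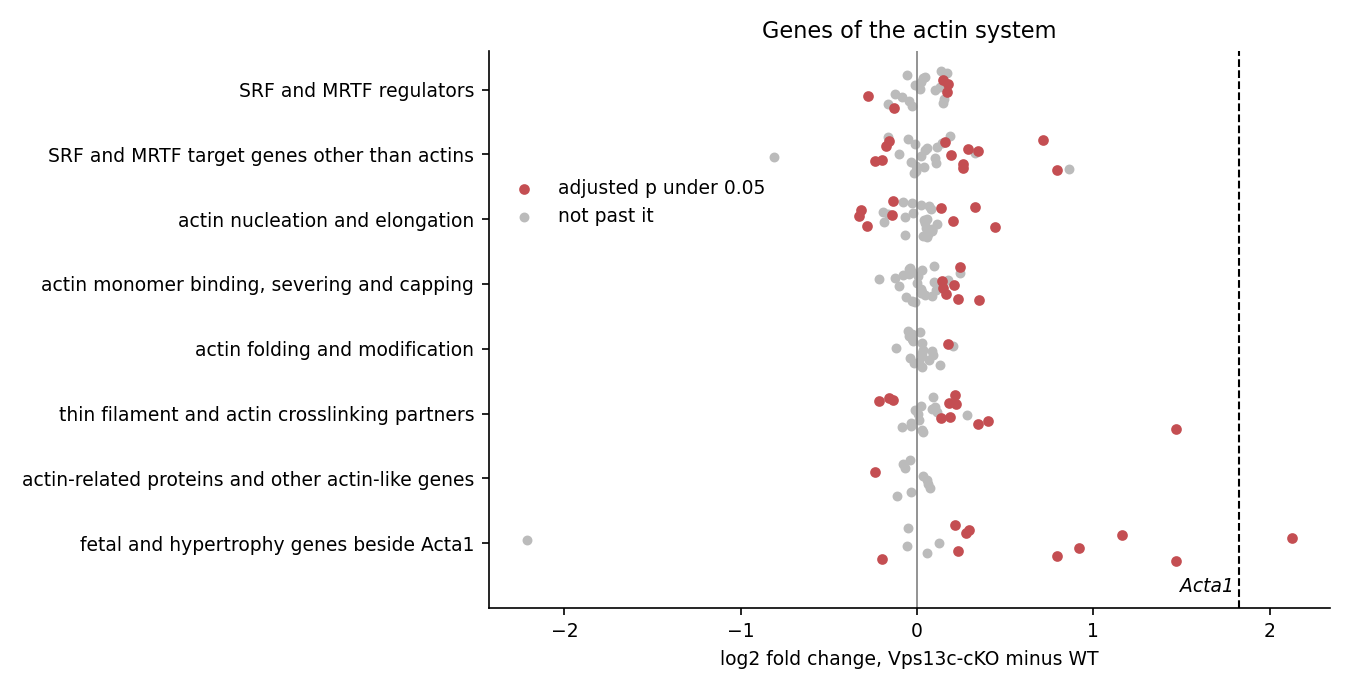
Log2 fold change (x axis, Vps13c-cKO minus WT) of each tested gene in 8 lists, of the actin system and of fetal and hypertrophy genes. Red points passed an adjusted p of 0.05 and the dashed line marks Acta1. Acta1, at 1.83, lies to the right of all list genes except Nppa, at 2.12.

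Markers of other cell types were read beside the actins, with 5.65% of all tested genes higher and 5.1% lower as the background of each count. Ventricular cardiomyocyte markers were abundant, with a summed level of 56319 to 62234 CPM in WT and 54818 to 59331 in Vps13c-cKO. Of 10 tested, 1 was higher and 3 were lower. Acta1 is also the actin of skeletal muscle fibres. Skeletal fibre markers were at 15.8 to 21.7 CPM in sum in WT and 74.0 to 107 in Vps13c-cKO. Of 14 listed, 6 were tested, and 6 of 6 tested were higher, all of them on chromosome 7. Of these, Atp2a1, Tnni2, Mylpf, Ryr1 and Tnnt3 had WT means of 0.335 to 0.783 CPM. They passed the filter on low counts only through the Vps13c-cKO libraries, so their direction was largely fixed in advance. None of the 6 actin genes lies on chromosome 7. The defining fast myosin genes Myh1, Myh2 and Myh4 had at most 2 counts in any library, and Tnnc2 had 0 in all. Actn3 and Pvalb had at most 6 and 4 counts.

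Atrial markers summed to 4.90 to 8.43 CPM in 5 WT mice, 85.4 in WT mouse 4 and 18.0 to 32.4 in Vps13c-cKO. Of 3 tested, 1 was higher, namely Nppa. In the knockout mice Sln had at most 1 count and Myl7 at most 5. Smooth muscle markers summed to 1478 to 1597 CPM in WT and 1736 to 1794 in Vps13c-cKO, of which most was Des, which cardiomyocytes also express. Of 10 tested, 3 were higher (Des, Myh11 and Myl9) and 1 lower (Smtn), while Acta2 did not pass. The calls of Myh11 and Myl9 were lost in 5 and 8 of 24 alternatives. Tagln, a defining smooth muscle gene, had 0 to 3 counts per library, and its exons overlap those of Pcsk7 and Gm48529 on the opposite strand.

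Most fibroblast markers, which matter for Actb, Actg1 and Acta2, were higher in Vps13c-cKO. The summed level of the list was 1954 to 2200 CPM in WT and 2241 to 2496 in Vps13c-cKO. Of 11 tested, 8 were higher (72.7%, against 5.65% of all tested genes) and 0 lower. Those that did not pass were Pdgfra, Tcf21 and Dcn (log2 fold changes 0.04, 0.25 and 0.07, edgeR, adjusted p = 0.664, 0.253 and 0.405). The means of the sum differed by 309 CPM, and Gsn alone went from 890 to 1031 CPM. Activated fibroblast markers were at 142 to 170 CPM in WT and 160 to 219 in Vps13c-cKO, with 4 of 10 higher (40%). Macrophage markers had 4 of 10 higher (40%), at 280 to 396 and 345 to 417 CPM. Against 5.1% of all tested genes lower, pericyte markers had 2 of 7 lower (28.6%), at 1555 to 1694 and 1427 to 1550 CPM, and endothelial markers 1 of 10 lower (10%), at 1006 to 1145 and 1010 to 1055 CPM. The part of these cell types in the levels of Actb, Actg1 and Acta2 was not tested.

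**Figure D5:**
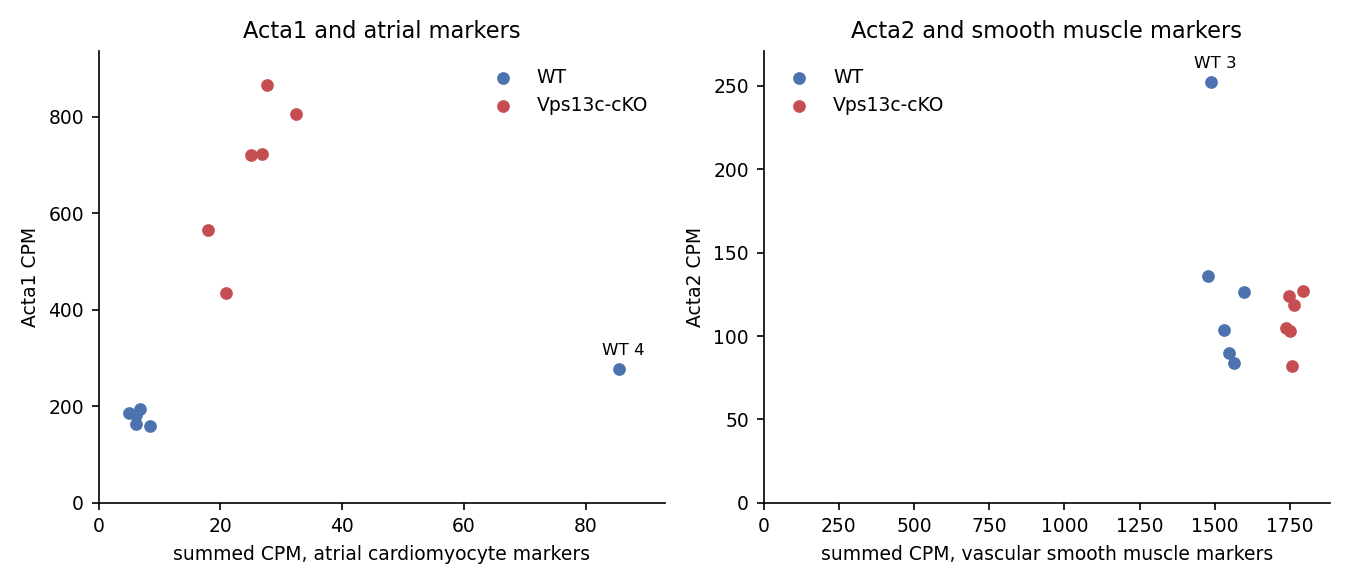
Left, Acta1 level (CPM) against summed CPM of atrial markers; right, Acta2 level (CPM) against summed CPM of vascular smooth muscle markers; each point is 1 mouse. WT 4 has the highest atrial sum, 85.4 CPM, with Acta1 at 277 CPM, and WT 3 has the highest Acta2, 252 CPM, with a smooth muscle sum of 1487 CPM.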

How the data were processed

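The deposited values are read counts per gene and mouse, whole numbers with no normalization by the authors, per the file headers. GRCm39 is the build given, and HTSeq 0.9.1, HISAT2 2.1.0 and fastp 0.22.0 are the tools, per the submitters' processing notes. Per the labels' protocols, mRNA was captured on poly-T beads and copied from random primers, with no strand marking mentioned, and reads are PCR products without molecular identifiers. Sources used here give neither the annotation release nor how strand was set. Groups came from the sample titles, and 0 columns of per-sample values were unused.

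Counts were tested with edgeR 4.0.16 in R 4.3.3 (TMM, filterByExpr, two-sided quasi-likelihood F test). The filter left 12384 of 21959 genes with 99.92% of counts, and the biological coefficient of variation was 0.0661. Names, lengths and coding sequences came from GENCODE M21 (GRCm38), so no member coordinates on GRCm39 are given. CArG boxes were searched as the consensus with 6 A or T bases between CC and GG. Named genes are the actins, Vps13c, the 4 smallest p of each list (1 gene of the SRF and MRTF regulators is not reported here), Nppa, Nppb, Ankrd1, Myh6 and Myh7, and the 3 most similar genes per actin. Others, such as Srf, were chosen after their values were seen. Members and lists were chosen with earlier results of these data known. Alternatives were other scalings, filters, DESeq2 1.42.0, limma 3.58.1, sva 3.50.0, a replicate block and leaving out each mouse.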

Additional observations from a re-analysis of the deposited data

Results flagged for a closer look

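A mouse is given here where it lay far from the other 5 of its group for its range (Dixon's ratio), which chance alone flags in about 1 in 20 groups. WT mouse 4 had the highest WT Acta1 level, 277 CPM against 194 CPM in the next mouse. It also had the highest WT log2 ratios of Acta1 to Actb, 0.604, and of Acta1 to Actg1, 1.63. In the same mouse atrial markers summed to 85.4 CPM, against 8.43 CPM in the next. WT mouse 3 had Acta2 at 252 CPM, which was 2.98% of summed actin CPM, and its Actc1 share was 91.3%. Vps13c-cKO mouse 3 had Actb at 211 CPM, or 2.14% of summed actin CPM. Vps13c-cKO mouse 4 had Actg2 at 0.560 CPM, from 7 counts, which was 0.00576% of summed actin CPM. In Vps13c-cKO mouse 6, which also had the lowest Acta1 of its group, activated fibroblast markers summed to 160 CPM, against 198 CPM in the next mouse.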

How the results depend on the processing

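The Acta1 log2 fold change was between 1.75 and 1.95 in all 24 alternatives and passed in each. Actc1 (0.03 to 0.06) and Actb (0.06 to 0.14) passed in none. Leaving out each mouse gave -0.36 to 0.029 for Acta2, which turned positive without WT mouse 3 (0.029), and 0.091 to 0.15 for Actg1, which passed without Vps13c-cKO mouse 2 (0.15) and with 1 surrogate variable (0.13). The share differences moved by less than 1 SD, but that SD is wide for Acta2 because of WT mouse 3, without which the Acta2 difference shrank from -0.361 to -0.0633 percentage points and that of Actb turned from -0.0338 to 0.0421. The log2 ratio of Actb to Actg1 was 0.0093 from medians and -0.040 to 0.0019 when leaving out each mouse, with the sign turned without WT mouse 3 (0.0019) or Vps13c-cKO mouse 6 (0.0012); no setting brought it past the threshold. Shared replicate numbers are not said to pair the mice. Correlations of same-numbered deviations were -0.04 to 0.0761 and 1 of 6 mice matched its own number best, which cannot settle whether mice were paired. With the replicate block, Acta1 was at 1.82, and the counts over all genes were 687 higher and 625 lower. The Acta1 to Actg2 ratio was then 1.71 with a sign-flip p of 0.0625. Ratios of Acta1 to the other actins had a sign-flip p of 0.03125, the smallest that 6 pairs can give. Over all alternatives, genes higher numbered 561 to 781 and genes lower 504 to 701. Of 1536 values of other named genes, 1399 kept their call, 123 lost it, 14 gained it and 0 reversed. Of 384 list counts, 349 stayed within 1.5 times. Actg2 has too few counts for a test. The cause of each shift was not tested.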
